A study of Mus musculus with 6 samples.

Results

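The genes of fatty acid uptake and lipoprotein lipolysis were followed in the hearts of mouse pups with and without ectopic activation of the human SRY gene, the male sex-determining factor of the Y chromosome. Cd36, Lpl, Fabp3, Fabp4, Fabp5, Slc27a1, Vldlr, Gpihbp1, Angptl4 and Lipe were taken by their symbols from the table of array intensities, with every probe that carried the symbol. These 10 genes had 16 of the 25697 probes on the array. Total RNA of whole hearts from 3 hSRY-ON and 3 hSRY-OFF male pups of FVB background at postnatal day 6 had been hybridized to 1 single-colour Illumina BeadChip array each, on which the brightness of the beads carrying a probe measures its transcript.

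Both groups are defined by a transgene in which the ubiquitous CAG promoter drives a FLAG-tagged human SRY, followed by a green fluorescent protein, once Cre recombinase has removed a red fluorescent cassette that blocks it. In hSRY-ON pups the recombination took place in the early embryo, by Cre that the oocyte of a Ddx4-Cre mother supplied, so that all tissues can carry the active form. The hSRY-ON pups taken for the arrays had not inherited Ddx4-Cre itself. The methods describe hSRY-OFF as the unrecombined transgene, but elsewhere the study's controls are littermates with Ddx4-Cre alone or with neither transgene. Which genotype the hSRY-OFF hearts had cannot be told from these sources. The transgene came from a single integration and is one line. The hSRY-ON pups grew poorly and had little milk in the stomach, so feeding and genotype cannot be told apart in any comparison here. The labels do not say from which litters the hearts came, and p-values measure only the spread between these 6 hearts.

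The heart burns mainly fatty acids, and takes up much of its supply from triglyceride-rich lipoproteins. Lipoprotein lipase, held on the capillary wall by GPIHBP1 and inhibited by ANGPTL4, releases fatty acids from these particles. CD36 and the transport protein FATP1 (Slc27a1) help them into the cell, where fatty acid-binding proteins carry them through the cytoplasm, while the VLDL receptor binds the particles themselves. Fatty acids are also set free inside cells from stored triglyceride, by lipases that include hormone-sensitive lipase (Lipe). After birth the heart turns from glucose towards fatty acids as milk feeding begins.

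In hSRY-ON hearts, those of the 10 genes that move fatty acids into and through the cell and could be tested were lower. Fabp3, the binding protein of heart and skeletal muscle, fell 2.11-fold and Slc27a1 fell 1.97-fold. Fabp5 was lower too, at signals near the background that give no firm size. Lpl and its inhibitor Angptl4 were higher, by 1.33-fold and 1.59-fold, and the transcript of the lipase's capillary anchor Gpihbp1 was at -0.44 (log2) without passing the test. The changes of Fabp3 and Slc27a1 held under every setting tried. Those of Lpl, Angptl4 and Fabp5 were fragile, passing in 0, 1 and 2 of the 6 fits that left out a heart. Each also failed under some of the other settings. Of the 16 probes, 13 were above background on at least 3 of the 6 arrays and were tested. Of these 13, 3 rose and 3 fell at an adjusted p-value under 0.05 (limma, Benjamini-Hochberg adjustment over all 12970 tested probes), in a comparison in which 27.5% of all tested probes passed (13.8% up, 13.7% down). In 8 of the 13 probes the groups did not overlap, as in 45.2% of all tested probes. By the brightest tested probe of each gene, 6 of the 8 tested genes passed, 3 up and 3 down, against 28.8% of all genes (14.9% up, 13.9% down). Of these 6, Fabp5 and Lipe met the filter through the group in which they were higher, and a second Lipe probe did not pass. The genes were also chosen with earlier results of these data known, so the count is no support for a change of the genes as a group. The median log2 change was -0.11 over the 13 probes and 0.00 over all tested probes.

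Detection was similar in all hearts. Between 47.2% and 51.3% of probes were above background on each array, with a median intensity of the detected ones from 377 to 528 among hSRY-OFF arrays and from 399 to 426 among hSRY-ON arrays, lowest in hSRY-OFF replicate 3. All levels below are log2 intensities after background correction and quantile normalization, so that they compare hearts for 1 probe and not 1 probe with another. The heart label held, since all 13 cardiomyocyte markers measured were detected, all but Ryr2 in every heart. Their summed linear level was 284477 to 297771 in the hSRY-OFF group and 270832 to 288018 in the hSRY-ON group. In whole hearts, fewer cells of a type and less RNA per cell cannot be told apart.

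**Figure D1:**
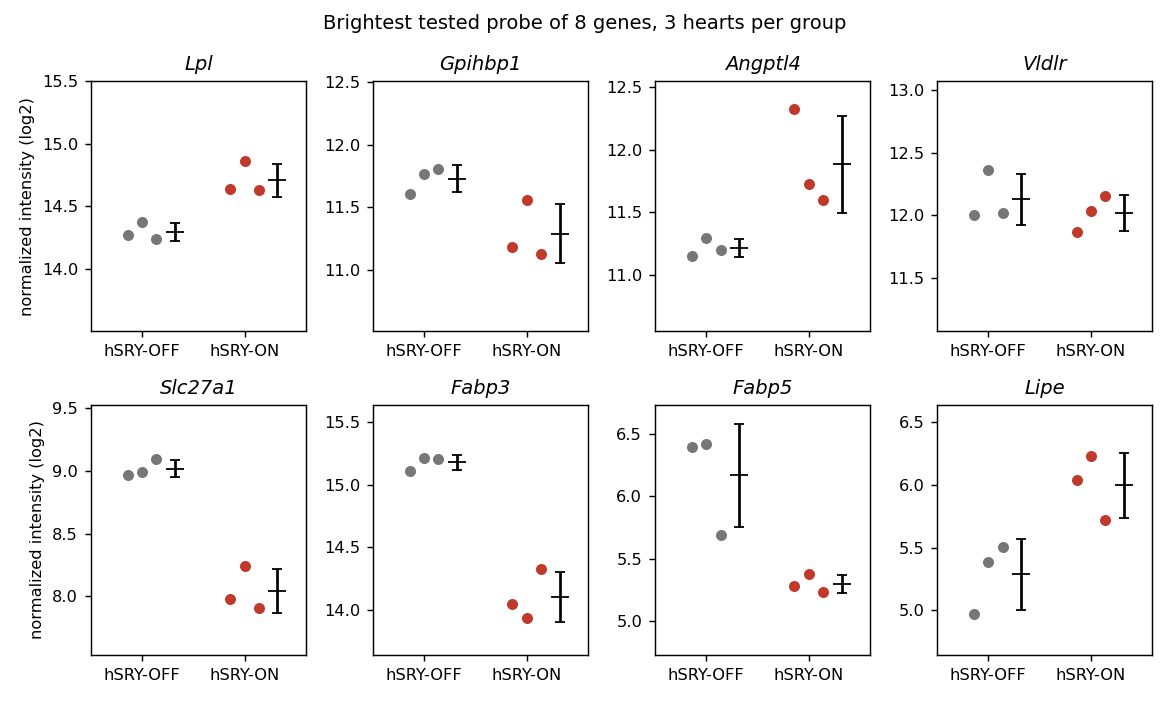
Normalized log2 intensity of the brightest tested probe of 8 genes in each of 3 hSRY-OFF (grey) and 3 hSRY-ON (red) hearts, with the mean and SD beside the points and an axis of its own for each gene. Fabp3 and Slc27a1 show the widest gap between groups against their spread, while the groups of Vldlr overlap and 1 hSRY-ON heart stands above the others for Angptl4.

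Lpl encodes lipoprotein lipase, which in the heart is made mainly by cardiomyocytes and passed to the capillaries. Its level was 14.28, 14.37 and 14.24 in the hSRY-OFF hearts and 14.64, 14.86 and 14.63 in the hSRY-ON hearts. All 3 hSRY-ON hearts lay above all 3 hSRY-OFF hearts. The log2 fold change was 0.41 (SE 0.12, 95% interval 0.13 to 0.70, adjusted p = 0.0415, limma). Before normalization the groups overlapped: the deposited intensities were 23949, 26814 and 16918 in hSRY-OFF and 23454, 29746 and 22870 in hSRY-ON hearts. With any 1 of the 6 hearts left out, the change lay between 0.34 and 0.46 but no longer passed (adjusted p = 0.0630 to 0.120), and without normalization between the arrays it was 0.19 (adjusted p = 0.795).

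Angptl4 encodes a secreted inhibitor of lipoprotein lipase whose transcript is known to rise with fasting, fatty acids and low oxygen. The hSRY-OFF hearts were at 11.15, 11.30 and 11.20 and the hSRY-ON hearts at 12.33, 11.73 and 11.60. The hSRY-ON hearts were all higher, and replicate 1 stood well above the other two, which gave this group an SD of 0.39 against 0.07 in hSRY-OFF. The increase was 0.67 on the log2 scale (SE 0.20, 95% interval 0.21 to 1.12, adjusted p = 0.0395, limma). Without hSRY-ON replicate 1 it was 0.45 (adjusted p = 0.0690), and it passed the test in only 1 of the 6 fits that left out a heart.

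Gpihbp1 encodes the protein of capillary endothelium that carries lipoprotein lipase to the vessel lumen and holds it there. Its level was 11.61, 11.77 and 11.81 in hSRY-OFF and 11.18, 11.56 and 11.13 in hSRY-ON hearts. The groups did not overlap, though hSRY-ON replicate 2 came close to the lowest hSRY-OFF heart. The difference was -0.44 (SE 0.15, 95% interval -0.79 to -0.09) and missed the threshold (adjusted p = 0.0665, limma), while it passed without hSRY-ON replicate 2 (-0.58, adjusted p = 0.0269). The 11 tested endothelial markers were mixed, with 3 up and 4 down, and a summed level of 36196 to 38389 in the hSRY-OFF group and 35280 to 38772 in the hSRY-ON group. Among the brightest of them, Egfl7 was at -0.15 (adjusted p = 0.372), Esam fell by 0.51 and Emcn rose by 0.53. Neither call was firm. Esam no longer passed without hSRY-OFF replicate 1 or 2 or without hSRY-ON replicate 1, and Emcn without hSRY-OFF replicate 1 or 3 or without hSRY-ON replicate 1 or 2. Of the other calls, Vwf was at 1.32 and Eng at 0.75 (adjusted p = 0.00658 and 0.00877, limma). Robo4, Cdh5 and Tek were at -0.81, -0.72 and -0.45 (adjusted p = 0.00227, 0.0109 and 0.0390, limma). Kdr was above background in no heart. The part of these markers in the level of Gpihbp1 was not tested.

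The lipase and its partners were also set against each other within each array, since a ratio of probes on 1 array shows whether they changed unequally. The log2 ratio of Lpl to Gpihbp1 was 2.67, 2.61 and 2.43 in hSRY-OFF hearts and 3.46, 3.30 and 3.50 in hSRY-ON hearts. It was higher in every hSRY-ON heart, by 0.85 on average, and without each heart in turn by 0.78 to 0.92. The exact two-sided permutation test gave p = 0.1, the smallest that 3 against 3 hearts allow, and 0.3 after adjustment over the 3 ratios computed. The ratio of Lpl to Angptl4 was 3.08 ± 0.04 (SD, n = 3) in hSRY-OFF and 2.82 ± 0.45 in hSRY-ON hearts, a difference of -0.26 (exact permutation p = 0.5, adjusted 0.6). These groups overlapped, with hSRY-ON replicate 1 far below the rest at 2.31.

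Vldlr encodes the VLDL receptor, which binds triglyceride-rich particles at the capillary and of which the array held 5 probes, all detected in every heart. No probe passed the test. The brightest was at 12.00, 12.36 and 12.02 in hSRY-OFF and at 11.87, 12.03 and 12.16 in hSRY-ON hearts, with the groups interleaved. Its difference was -0.11 (95% interval -0.45 to 0.24, adjusted p = 0.630, limma). The next 2 probes differed by 0.00 (95% interval -0.31 to 0.31) and 0.01 (95% interval -0.29 to 0.32). The 2 dimmest probes went opposite ways. One was at 0.39 (95% interval 0.03 to 0.75, adjusted p = 0.0992) with no overlap between the groups, and without hSRY-OFF replicate 3 it was 0.53 and passed (adjusted p = 0.0235). The other was at -0.16 (95% interval -0.50 to 0.17). Which transcripts of Vldlr the probes read was not determined here.

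**Figure D2:**
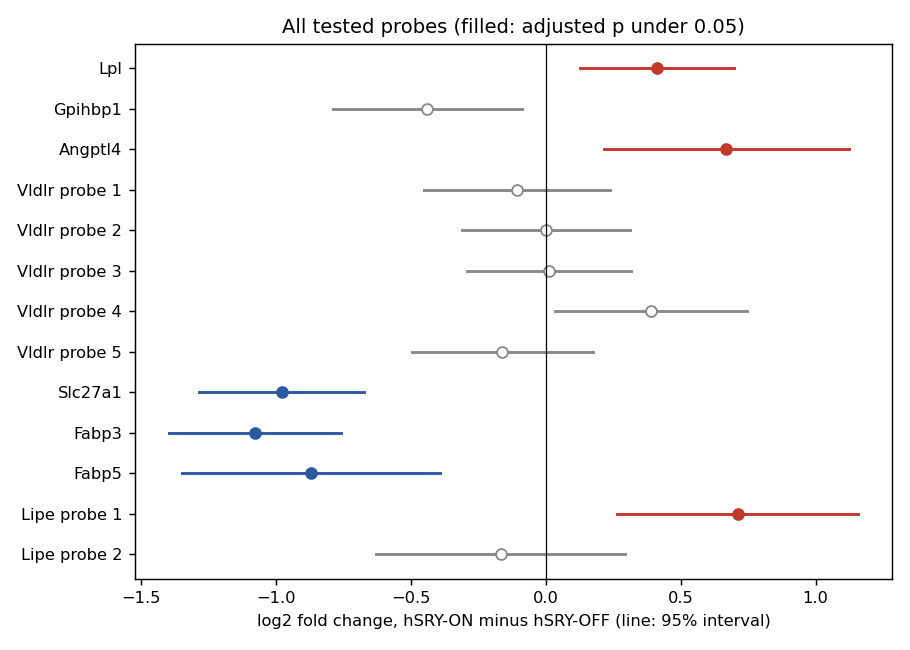
Log2 fold change (hSRY-ON minus hSRY-OFF) and 95% interval of the 13 tested probes, filled where the adjusted p-value (limma) was under 0.05. Lpl, Angptl4 and one Lipe probe lie to the right of 0 and Slc27a1, Fabp3 and Fabp5 to the left, while 3 of the 5 Vldlr probes, numbered from bright to dim, centre near 0.

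Cd36 encodes the main fatty acid translocase of heart muscle, and nothing can be said of it from these arrays. Its only probe was not well above background in any heart, with detection p-values of 0.110, 0.123 and 0.159 in hSRY-OFF and 0.400, 0.695 and 0.788 in hSRY-ON hearts. Its normalized level did not overlap between the groups, with a mean of 5.08 in hSRY-OFF and 4.61 in hSRY-ON hearts. At signals this close to background such a difference gives no reading of the transcript. Cd36 RNA is known to be abundant in heart, and whether this probe reads it was not tested.

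Slc27a1 encodes FATP1, an acyl-CoA synthetase of the membrane that traps entering fatty acids. Its level was 8.97, 8.99 and 9.10 in hSRY-OFF and 7.98, 8.24 and 7.90 in hSRY-ON hearts. Each hSRY-ON heart lay well under each hSRY-OFF heart. The fall was -0.98 on the log2 scale (SE 0.13, 95% interval -1.29 to -0.67, adjusted p = 0.00189, limma), the 619th largest decrease of the 12970 tested probes. The deposited intensities, before any processing, were separate too, at 726, 786 and 526 in hSRY-OFF and 361, 432 and 351 in hSRY-ON hearts. It passed the test under all 16 alternatives, leaving out each heart included, with changes from -1.09 to -0.69.

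Fabp3 encodes the fatty acid-binding protein of heart and skeletal muscle, among the most abundant proteins of the cardiomyocyte cytoplasm. Its level was 15.11, 15.21 and 15.21 in hSRY-OFF hearts and 14.04, 13.93 and 14.32 in hSRY-ON hearts. The hSRY-OFF hearts were nearly equal, and every hSRY-ON heart was far below them. The fall was -1.08 on the log2 scale (SE 0.14, 95% interval -1.40 to -0.76, adjusted p = 0.00152, limma), the 504th largest decrease. The deposited intensities were 39293, 41360 and 33584 in hSRY-OFF and 14998, 14356 and 18259 in hSRY-ON hearts. The highest intensities on the arrays were 43036 to 48079, so the hSRY-OFF values lay near the top of the range. The decrease was present under all 16 alternatives, from -1.27 to -0.96.

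Among the cardiomyocyte markers, 1 of the 13 tested rose and 5 fell, with a median of -0.20. Myh7, the slow myosin heavy chain of the fetal ventricle, rose by 2.94. Among those that fell were Pln, the brake on the calcium pump, at -1.47, Tnni3, the adult cardiac troponin I, at -1.13, and Ryr2, the calcium release channel, at -1.09. Ryr2 lay near the background in hSRY-ON hearts, above it in 2 of them, so its size is not firm. Actn2, Tnnc1, Actc1 and Ttn were at 0.13, -0.18, -0.20 and -0.21, none past the test. The brightest markers, Myl3, Myl2 and Nppa, were at -0.03, -0.02 and 0.14, none past the test. These are at the top of the array range, where Myl2 and Nppa had an SD of 0.00 over the hSRY-ON hearts after quantile normalization, so that a change could not be read from them. The part of the cardiomyocyte share in the fall of Fabp3 was not tested.

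The promoter table (RefSeq, build GRCm38.p6) held 9 windows of 300 bases for 5 of the 10 genes, Fabp3, Slc27a1, Cd36, Lipe and Vldlr. The bases before the start are shown for the most clearly changed pair, at chr4:130308488-130308737 on the plus strand for Fabp3 and, for the first of 3 starts of Slc27a1, at chr8:71568621-71568870 on the plus strand. The 250 bases end just before the transcription start and are in lower case throughout, since capitals would mark a motif and none matched.
Fabp3: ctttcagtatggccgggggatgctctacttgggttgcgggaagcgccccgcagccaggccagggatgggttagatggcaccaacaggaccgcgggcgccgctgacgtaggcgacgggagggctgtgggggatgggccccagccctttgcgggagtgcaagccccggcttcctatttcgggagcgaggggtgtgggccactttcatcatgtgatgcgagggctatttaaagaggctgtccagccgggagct
Slc27a1: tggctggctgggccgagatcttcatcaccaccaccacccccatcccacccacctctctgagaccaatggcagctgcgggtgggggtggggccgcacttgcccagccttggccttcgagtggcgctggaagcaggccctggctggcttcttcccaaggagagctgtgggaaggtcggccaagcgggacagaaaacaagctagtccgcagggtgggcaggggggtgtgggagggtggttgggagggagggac
Both strands were searched for AGGTCA, the half-site of nuclear receptors such as the PPARs, which 16.3% of all 32851 promoters in the table held. A direct repeat of that half-site with 1 base between its copies, which therefore overlaps the first search, was in 0.0396% of them. A pair of motifs of the HMG box that SRY shares with SOX factors was searched as well. The letters AACAAT were in 10.7% of all promoters. The longer form AACAAAG was in 5.85%. Of the 9 windows only that of Cd36 held any of these, all but the direct repeat.

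Fabp5 encodes the epidermal fatty acid-binding protein, made in endothelium and macrophages among other cells. It was dim here. One probe was at 6.39, 6.42 and 5.69 in hSRY-OFF hearts, all above background, and at 5.28, 5.38 and 5.23 in hSRY-ON hearts, of which 1 was above background. All hSRY-ON hearts were lower, and hSRY-OFF replicate 3 was the nearest to them. The fall was -0.87 (SE 0.21, 95% interval -1.35 to -0.39, adjusted p = 0.0181, limma) and rests on signals near the background. It was -0.24 without background correction (adjusted p = 0.0572), and it passed in only 2 of the 6 fits that left out a heart. The second probe was not well above background in any heart.

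Fabp4, the fatty acid-binding protein of adipocytes and capillary endothelium, was too dim to be tested. Its intensities were 215, 217 and 148 in hSRY-OFF and 159, 167 and 150 in hSRY-ON hearts, above background in 2 hSRY-OFF hearts and in no hSRY-ON heart. The lowest intensity was that of hSRY-OFF replicate 3, which was also the dimmest array. After normalization this heart was at 5.04, among the hSRY-ON hearts at 5.01, 5.15 and 4.84, so the groups overlapped. The log2 ratio of Fabp3 to Fabp5 differed by -0.21 between the groups (exact permutation p = 0.6, adjusted 0.6), but with Fabp5 above background in only 1 hSRY-ON heart its size depends on the background. It was -0.84 without background correction and -0.65 with normexp and an offset of 50, each at the smallest exact permutation p of 0.1. Without hSRY-OFF replicate 3 that difference was 0.09.

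Lipe encodes hormone-sensitive lipase, which splits diglycerides released from stored fat. Its 2 probes disagreed. The first was at 4.97, 5.38 and 5.51 in hSRY-OFF and at 6.04, 6.23 and 5.72 in hSRY-ON hearts, higher in every hSRY-ON heart and above background in 1 and 3 hearts respectively. Its log2 fold change was 0.71 (SE 0.19, 95% interval 0.26 to 1.16, adjusted p = 0.0301, limma). The second was at 5.79, 5.35 and 5.74 in hSRY-OFF and at 5.08, 5.64 and 5.65 in hSRY-ON hearts, with overlapping groups and a difference of -0.17 (95% interval -0.63 to 0.30, adjusted p = 0.567). Both lay near the background, and the first was at 0.19 without background correction (adjusted p = 0.104) and passed in only 2 of the 6 fits that left out a heart.

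Adipocyte markers differed between the hearts as well. Adipoq, the adiponectin gene, was at 4.82, 5.49 and 5.84 in hSRY-OFF and at 7.49, 6.07 and 7.04 in hSRY-ON hearts, an increase of 1.48 (SE 0.39, adjusted p = 0.0265, limma). It no longer passed when replicate 1 of either group, hSRY-OFF replicate 2 or hSRY-ON replicate 3 was left out, at values from 1.18 to 1.51. Cfd was at 1.26 (adjusted p = 0.0818) and Lpin1 at -0.52 (adjusted p = 0.233). Of the 10 adipocyte markers, 3 were tested and 1 rose. The other defining ones, Plin1, Lep, Retn, Cidec, Pck1 and Acvr1c, were above background in no heart, and the summed level was 721 to 826 in the hSRY-OFF group and 612 to 919 in the hSRY-ON group. Lpin1 was the largest part of that sum in every heart, so the overlap of the sums does not show that the other markers were equal. Of the 6 brown adipocyte markers tested, 2 rose and 2 fell, with a summed level of 27967 to 29326 in the hSRY-OFF group and 17634 to 18505 in the hSRY-ON group. Most of that sum was Cox8b, and without it the sums overlapped, at 3157 to 4645 against 2454 to 5020. Cox8b and Ppargc1b, which the heart expresses too, fell by 0.77 and 1.35, and Cidea was at -1.05 (adjusted p = 0.0691). Ucp1, the defining gene of brown fat, was at 4.64, 5.03 and 8.88 in hSRY-OFF and at 10.81, 8.80 and 9.94 in hSRY-ON hearts, higher by 3.67 in hSRY-ON (SE 1.07, adjusted p = 0.0395, limma) but with overlap through hSRY-OFF replicate 3. The Ucp1 probe was above background in 1 hSRY-OFF heart and in 3 hSRY-ON hearts. It met the filter through the hSRY-ON hearts, and its size depends on the background. Elovl6, a fatty acid elongase that liver and other tissues make too, rose by 2.59 (adjusted p = 0.000236). Elovl3 and Dio2 were above background in no heart. The part of fat attached to the heart in the level of Lipe, Fabp4 or Lpl was not tested.

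Macrophages express Lpl, Fabp4 and Fabp5, and most but not all of their markers were higher in hSRY-ON hearts. Of 12 markers tested, 8 rose (1 of them, Cd163, tested through the hSRY-ON hearts only) and none fell, with a median of 0.95 and a summed level of 4888 to 6207 in the hSRY-OFF group and 11180 to 11342 in the hSRY-ON group. Lyz2 rose by 1.02, Mrc1 by 0.97 and C1qc by 1.12. Csf1r, Fcgr1, Aif1 and Adgre1 were at 0.40, 0.19, 0.06 and -0.21, none past the test. The part of macrophages in the rise of Lpl was not tested. Of 9 fibroblast markers 1 rose and none fell by the brightest probe, with a summed level of 36584 to 39462 against 34075 to 37677. The brightest were at -0.30 for Dcn, 0.05 for Col1a1 and -0.43 for Lum, none past the test. A second Dcn probe fell by 0.90 and did pass (adjusted p = 0.0108, limma). Of 5 erythroid markers 1 fell, Hbb-b1 at -1.29 (adjusted p = 0.00502, limma), and the summed level was 49152 to 61394 against 50927 to 55599. Hba-a1, Alas2 and Slc4a1 were at 0.03, -0.50 and -0.61, none past the test. Most of the sum was Hba-a1, at the top of the array range with an SD of 0.00 over the hSRY-ON hearts. A change could therefore not be read from Hba-a1 or from the sum.

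**Figure D3:**
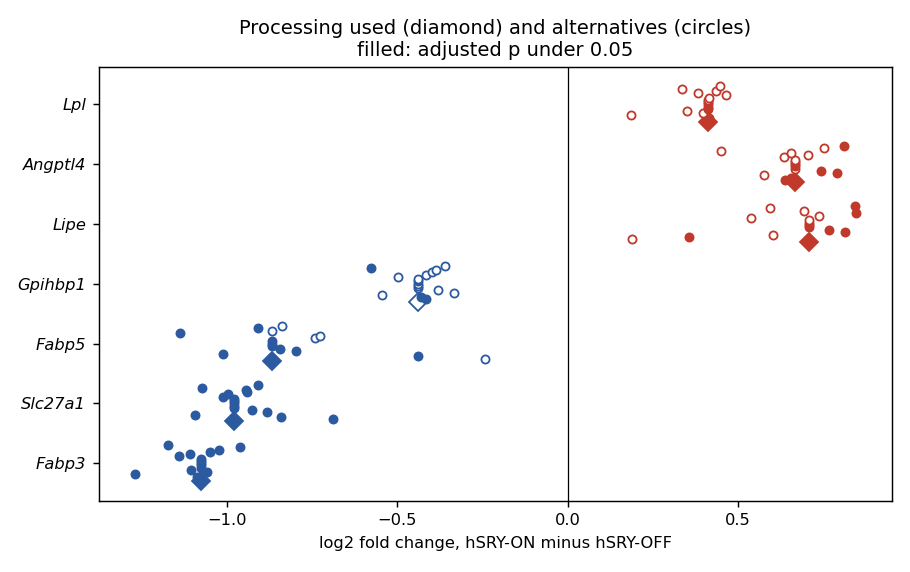
Log2 fold change (hSRY-ON minus hSRY-OFF) of the brightest probe of 7 genes as processed here (diamond) and under the alternative settings, leaving out each heart included (circles), filled where the adjusted p-value was under 0.05. Fabp3 and Slc27a1 are filled throughout, whereas Lpl, Angptl4, Lipe, Gpihbp1 and Fabp5 lie on both sides of the test with no change of direction.

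Around these genes, 68 others of lipid uptake and lipolysis were listed, of which 60 were on the array and 37 were tested. By the brightest probe, 8 rose (2 of them, Lrp8 and Lsr, with no hSRY-OFF heart above background) and 6 fell, 37.8% of those tested beside 28.8% of all genes, with a median change of 0.00. Of 8 tested transporters and binding proteins, 1 rose and 3 fell, with a median of -0.26. Cav1, the coat protein of caveolae, fell by 1.39 (SE 0.19, adjusted p = 0.00199, limma), and its partner Cav2 by 0.97 (SE 0.11, adjusted p = 0.00114). Got2, a mitochondrial aminotransferase that also binds fatty acids at the plasma membrane, fell by 0.48 (SE 0.11, adjusted p = 0.0162), but did not pass without replicate 1 of hSRY-OFF (adjusted p = 0.0509) or of hSRY-ON (adjusted p = 0.0597). Cd9, a tetraspanin that associates with CD36, rose by 0.95 (SE 0.14, adjusted p = 0.00259). The related transporters Slc27a3, Slc27a4 and Slc27a6 were at -0.28, 0.00 and -0.23, and none passed.

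Among 5 tested genes of the lipases and their maturation, 2 rose and none fell, with a median of 0.13. Furin, the convertase that cleaves lipoprotein lipase and ANGPTL proteins, rose by 0.78 (adjusted p = 0.00584, limma), and its second tested probe by 0.79. Sel1l, needed for lipoprotein lipase to leave the endoplasmic reticulum, rose by 0.53 (adjusted p = 0.00956), but another probe was at 0.21 and did not pass. Lmf1, the factor that folds the lipase, was at -0.37 (adjusted p = 0.0620). Of the lipase's regulators and the apolipoproteins, 10 were on the array but only 3 were tested. Apoc1, a small apolipoprotein that inhibits lipoprotein lipase, rose by 1.80 (SE 0.17, adjusted p = 0.000493), Apoe rose by 0.99 (SE 0.15, adjusted p = 0.00264), and the lipase's activator Apoc2 was at 0.33 (adjusted p = 0.120). Both Apoc1 and Apoe are made by macrophages and liver cells. Hepatocyte markers also rose, in 3 of 3 tested, from a summed level of 946 to 1044 in hSRY-OFF to 3145 to 5177 in hSRY-ON hearts. Trf rose by 1.71 and Ahsg by 3.07. Ttr was at least 3.87-fold higher, but its probe was above background in no hSRY-OFF heart and entered the test through the hSRY-ON hearts (adjusted p = 0.000789 with no filter, limma). At the same time Alb, Fgb, Serpina1a and Cps1 were above background in no heart. Apoa1, Apoa2 and Fga were above background in 2, 1 and 1 hSRY-ON hearts and in no hSRY-OFF heart, too few to be tested. All 3 were highest in hSRY-ON replicate 3, at 7.23, 7.63 and 5.87. The part of liver cells in the levels of Apoc1 and Apoe was not tested.

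Of 8 tested lipoprotein receptors, 2 passed, both higher in hSRY-ON hearts. Their probes were above background in every hSRY-ON and in no hSRY-OFF heart, so that they entered the test through the group in which they are high, and the count is no support for a direction of the list. With no filter on low values, both still passed. Their changes are lower bounds, the mean of the bright group over the lowest signal counted as above background. Lrp8, the closest relative of the VLDL receptor, was at least 4.30-fold higher (adjusted p = 0.00176, limma, and 0.00388 with no filter), and its other probe, likewise above background in hSRY-ON hearts only, rose too. Lsr, a receptor of liver and epithelia for lipolysed particles, was at least 2.18-fold higher on this probe (adjusted p = 0.00165, and 0.00306 with no filter). A second Lsr probe was above background in 1 hSRY-OFF and no hSRY-ON heart and was not tested. Vldlr itself stood near 0 on its brightest probes.

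Of 13 tested genes of intracellular lipolysis and the lipid droplet, 1 rose and 3 fell, with a median of -0.22. Plin5, which coats lipid droplets in oxidative tissue and ties them to mitochondria, was at 10.84, 11.10 and 10.67 in hSRY-OFF and at 7.57, 7.13 and 7.80 in hSRY-ON hearts. The groups were far apart. The fall was -3.37 (SE 0.20, adjusted p = 7.27e-05, limma) and -3.03 on its other probe. Mgll, the lipase of monoglycerides, fell by 0.90 (SE 0.12, adjusted p = 0.00164) and likewise on both other probes. Cideb, a droplet protein known from liver, fell by 1.12 (SE 0.23, adjusted p = 0.0105). Hilpda, an inhibitor of the main triglyceride lipase that is known to rise with low oxygen, rose by 0.77 (SE 0.12, adjusted p = 0.00283). That lipase, Pnpla2, its activator Abhd5 and its inhibitor G0s2 were at -0.39, 0.30 and -0.20, and none passed.

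**Figure D4:**
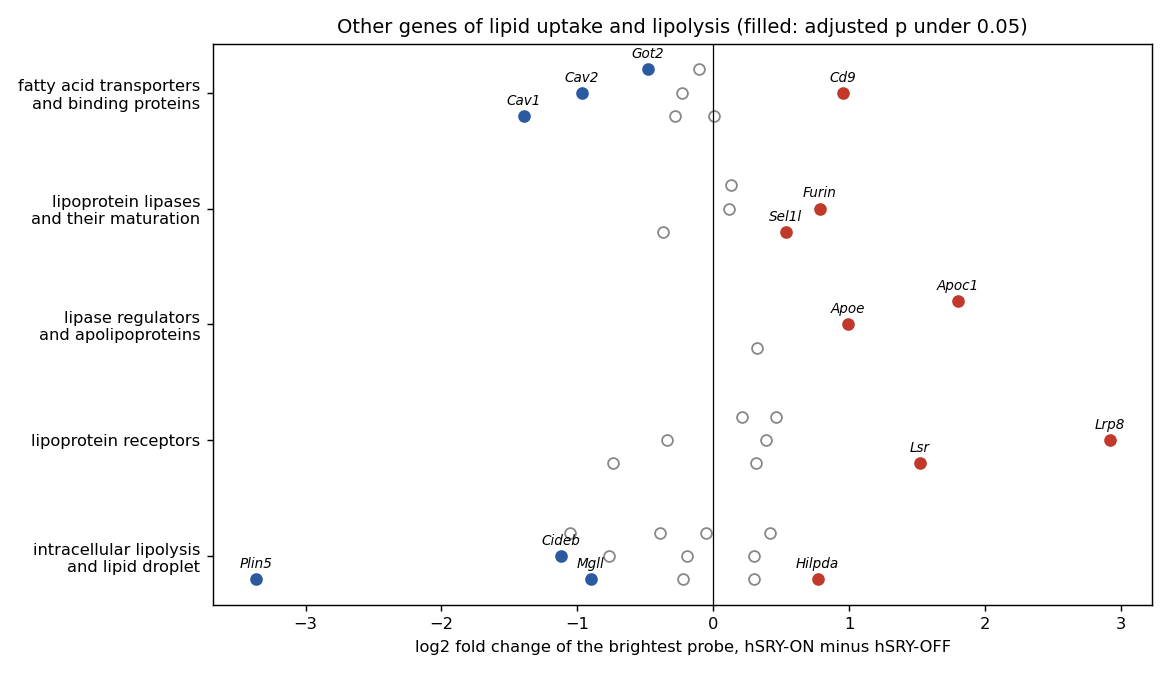
Log2 fold change (hSRY-ON minus hSRY-OFF) of the brightest probe of 37 tested genes in 5 lists around the members, filled and named where the adjusted p-value was under 0.05. Plin5 lies farthest left at -3.37, and Lrp8 and Lsr, drawn at their fitted values, have only lower bounds because the probes drawn were above background in no hSRY-OFF heart.

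The tested probes whose values over the 6 arrays ran closest to Fabp3, the member with the largest decrease, were those of Fkbp4, a co-chaperone (Euclidean distance 0.108 after centring on the mean), Fxyd1, phospholemman (0.114), and Mrpl35, of the mitochondrial ribosome (0.129). Fxyd1 and Mrpl35 fell by 1.01 and 1.04, and Fkbp4 by nearly as much. Closest to the first Lipe probe, the member with the largest increase as processed here but not without background correction (0.19, against 0.64 for Angptl4 and 0.42 for Lpl), were Gnptg (0.153), Srprb (0.183) and Htra3 (0.188), which rose by 0.75, 0.75 and 0.78. With 6 arrays in 2 groups such a profile is mostly the size of the group difference, which many probes share.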

How the data were processed

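The authors deposited, for each probe and heart of a MouseRef-8 BeadChip, a mean bead intensity without normalization and a detection p-value against the negative controls of that array. The software behind these values is not given in the sources used here, and the methods name TCC for the study's own comparison without settings.

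From there, limma 3.58.1 in R 4.3.3 was used, and figures were made with matplotlib 3.10.9 in Python 3.11.15. Background was removed by neqc, which inferred the negative controls from the deposited detection p-values. An offset of 16 was added before quantile normalization and log2, so a change is relative to the other probes. Probes with detection p under 0.05 on at least 3 of the 6 arrays were tested by limma's lmFit and eBayes without covariates, and two-sided p-values were adjusted by the Benjamini-Hochberg method over 12970 probes. The fit was tried on simulated data with changes planted only in probes well above the background. That trial does not cover dim probes such as those of Fabp5 and Lipe, or changes as small as that of Lpl. Precision is limited by the number of arrays, of which no 2 held identical values.

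The members and the lists were chosen with earlier results of these data known. All members were named, and of the lists the genes that passed with the 3 largest changes each way, the 3 brightest markers of each cell type and the 3 nearest profiles. Other list genes (such as Pnpla2, Lmf1, Apoc2, Ucp1, Elovl6, Myh7, Pln, Tnni3, Ryr2, Cd163 and the Slc27a genes) were named after their values were seen. Plin5 is 2310076L09Rik on the array and Hilpda 2310016C08Rik. Of 5 planned ratios 3 were computed, since Cd36 and Fabp4 were not well above background. The alternatives were 2 other background corrections, 3 other ways of scaling arrays, 3 other filters, an intensity trend, a replicate block, and each heart left out.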

Additional observations from a re-analysis of the deposited data

How the results depend on the processing

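Fabp3 and Slc27a1 kept their direction and passed under all 16 alternatives. No alternative turned the direction of Lpl, Angptl4, Gpihbp1, Fabp5 or the first Lipe probe, but each changed its side of the threshold under some, and the causes were not tested. Without background correction, Fabp5 was at -0.24 and the first Lipe probe at 0.19, both no longer past the test, while Gpihbp1 passed at -0.42. Gpihbp1 also passed with normexp and an offset of 50 (-0.43) and with an intensity trend (-0.44), which took the falling genes of the surrounding lists from 6 to 10. Without normalization between arrays the median of all tested probes moved to -0.12, and 1897 probes passed, 38.5% of them up, against 50.1% of 3567. Lpl was then at 0.19 (0.30 above that median), Angptl4 at 0.58 and Lipe at 0.60, none of which passed, Vldlr probes turned to -0.12 and -0.11, and 3 member probes in 3 genes passed, 0 of them up, and 5 genes of the lists rose. Of the other named genes, Got2 (-0.76), Furin (0.65), Sel1l (0.43), Hilpda (0.67), Esam (-0.63) and Emcn (0.41) no longer passed, and Hba-a1 and Col1a1 turned to -0.013 and -0.071. Scaling to the median of detected probes gave 65.7% up among the called, Lpl at 0.40 without passing, a dim Vldlr probe at 0.47 that passed, Esam at -0.41 that did not, and Myl3 and Myl2 at 0.10. A scaling in the manner of TCC gave Lpl at 0.35 without passing and Myl3 and Myl2 at 0.054 and 0.055. Without a probe filter Angptl4, at 0.67, missed the threshold (adjusted p = 0.0642, limma), as did Adipoq, at 1.48 (adjusted p = 0.0512). In that setting 2 member probes passed as higher and 4 as lower. The lower ones then included a probe that the filter leaves out, with signals not well above background. Fabp5 and Lipe gave no value when detection on all 6 arrays was asked, nor did Fabp5 and the second Lipe probe at detection p under 0.01.

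Whether the replicate numbers pair the hearts is not known, and the hearts were taken as unpaired. Deviations of hearts with the same number correlated at -0.02, 0.04 and -0.07, which with 3 hearts per group cannot settle the question. With the replicate block, 3 member probes in 3 genes passed and 0 of them were up, since Lpl (0.41, adjusted p = 0.0669), Angptl4 (0.67, adjusted p = 0.0661) and Lipe (0.71, adjusted p = 0.0589) were lost, as were Emcn (0.53, adjusted p = 0.0576) and Adipoq (1.48). The ratios within arrays were not run with the block.

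With each heart left out in turn, 2 to 5 member probes passed (0 to 2 up, 2 to 4 down) in 2 to 4 genes, and 2239 to 3714 of all probes, the lowest without hSRY-OFF replicate 1. In the lists 8 to 9 genes rose and 5 to 7 fell, and 22 to 31 marker genes passed. Lpl lay between 0.34 and 0.46, Angptl4 between 0.45 and 0.81, Gpihbp1 between -0.58 and -0.36, Fabp5 between -1.14 and -0.73, and the Lipe probes between 0.54 and 0.85 and between -0.30 and 0.020. The Vldlr probes, from bright to dim, lay between -0.18 and 0.0097, -0.094 and 0.074, -0.078 and 0.067, 0.27 and 0.53, and -0.26 and -0.03. The ratio of Fabp3 to Fabp5 lay between -0.40 and 0.090 and that of Lpl to Angptl4 between -0.42 and -0.01. Myl3 lay between -0.064 and 3.4e-05, Myl2 between -0.042 and 0.0020, and Col1a1 between -0.014 and 0.12.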
